A study of Ovis aries with 26 samples.

Results

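Mitochondrial ribosomal proteins are made in the cytosol from nuclear genes and carried into mitochondria, where they build the ribosome that translates the genes of mitochondrial DNA. Of the 30186 gene rows of a table of sheep oocyte and embryo RNA, 76 have symbols that begin with MRPL or MRPS followed by a number, and these are described here. The first prefix names proteins of the large ribosomal subunit and the second those of the small one, as they were first assigned. By current knowledge of mammalian mitochondrial ribosomes, 51 of the 76 belong to the large subunit, which includes MRPS30 and MRPS18A, and 24 to the small subunit. MRPS36 is now known as a subunit of the 2-oxoglutarate dehydrogenase complex and was placed in neither class.

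A mitochondrial ribosome holds a pair of ribosomal RNAs transcribed from mitochondrial DNA and, around them, proteins that all come from the nucleus. Some of the proteins descend from bacterial ribosomal proteins, and others are found only in mitochondria. The ribosome makes the few membrane subunits of the respiratory chain and of the ATP synthase that mitochondrial DNA encodes. Oocytes hold a large stock of mitochondria that is divided among the cells during cleavage, and new mitochondrial DNA is in general not made until around the blastocyst stage.

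The libraries came from sheep (Ovis aries) at 8 stages. They were MII oocytes (mature oocytes arrested at the second meiotic metaphase, 2 libraries) and embryos of 2 cells (2C, in 4 libraries), of 4 cells (4C, in 3), of 8 cells (8C, in 4) and of 16 cells (16C, in 3), followed by the morula (Morula, in 3), the early blastocyst (EarlyB, in 3) and the expanded blastocyst (ExpB, in 4). Mature oocytes were fertilised in vitro for 16 h in drops of BO-IVF medium and the zygotes were moved to BO-IVC medium, so that every embryo group shares in vitro fertilisation and culture; no genotype or agent distinguishes the groups. After direct lysis, full-length cDNA of poly(A) RNA was made with Smart-seq2. The labels give neither the number of oocytes or embryos in a library nor the animals behind replicates, so a p-value here reflects library-to-library spread alone, and that spread may be technical.

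Levels are FPKM (reads assigned to a gene, scaled to its length and to the assigned reads of the library) and can be compared between genes because they are per length. Differences between stages were taken as log2(FPKM + 1), so that for genes near or below 1 FPKM the change is understated. Libraries held 16045891 to 35558985 assigned reads. Summed levels of 8 oocyte genes were 2.52 to 11.4 FPKM in ExpB libraries and 3504 to 3558 FPKM in MII libraries. Those of 6 trophectoderm genes were 3300 to 7474 FPKM in ExpB libraries and 5.52 to 6.03 FPKM in MII libraries, where CDX2 and KRT18 were at 0. The sum of 10 cumulus and granulosa cell genes was 27.9 to 40.0 FPKM for MII, 61.2 to 245.5 for 2C, 149 to 557 for 4C, 21.9 to 143.5 for 8C and 27.4 to 111 for 16C. It was 15.6 to 45.9 FPKM for Morula, 2.92 to 10.8 for EarlyB and 0.786 to 4.61 for ExpB, and the part of these cells in the results below was not tested. In such bulk samples, fewer cells of a type and less RNA per cell cannot be told apart.

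The library 16C 3 stood apart from the other 16C libraries. It had the highest 16C level for 55 of 75 tested mitochondrial ribosomal protein genes (73.33%), against 34.89% of all tested genes, and for 63 of 76 cytosolic ribosomal protein genes. Of the 75 genes, 35 were there more than 2-fold above both other 16C libraries in FPKM + 1 (46.67%, against 9.41% of all tested genes). Libraries 2C 1 and 4C 1 were each highest in their stage for 44 of the 75 genes (58.67%). Of all tested genes, 45.81% were highest in 2C 1 and 42.55% in 4C 1 within the stage. The library MII 1 was the higher MII library for 40 of the 75 genes (53.33%), against 49.51% of all tested genes. It was the higher one for 75 of 76 cytosolic ribosomal protein genes.

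Summed over the 76 genes, levels were alike from MII to 16C and highest in morulae. The sum averaged 3665 ± 305 FPKM for MII, 3969 ± 439 for 2C, 4173 ± 418 for 4C, 3774 ± 188 for 8C and 3962 ± 1378 for 16C (SD, n = 2, 4, 3, 4 and 3). It averaged 7928 ± 309.7 FPKM for Morula, 5648 ± 94.4 for EarlyB and 5033 ± 599 for ExpB (n = 3, 3 and 4). The 3 morulae, at 7581 to 8175 FPKM, lay above every other library. Library 16C 3, at 5527 FPKM, lay above the other 16C libraries, the lower of which was at 2931 FPKM.

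The sum hides how many genes moved, since 1 gene, MRPL42, held 22.2% of it for MII, 30.5% for 2C, 35.3% for 4C, 30.3% for 8C and 27.7% for 16C. That share was 4.00% for Morula, 1.64% for EarlyB and 1.84% for ExpB. The level of the median member was 7.41 FPKM for MII, 11.8 for 2C, 10.3 for 4C, 11.03 for 8C and 16.6 for 16C, and then 69.6 for Morula, 61.0 for EarlyB and 54.5 for ExpB. The 16C value rested on 16C 3 and was 9.50 FPKM without it. Members at 10 FPKM or more numbered 29 to 31 per library for MII, 36 to 55 for 16C, 62 to 65 for Morula, 67 to 70 for EarlyB and 58 to 63 for ExpB.

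Because these are shares of each library, the sum also depends on what the other genes did. The deposited FPKM of a library added up to 419072 at the lowest, in 2C 4, and 682165 at the highest, in ExpB 1. Rescaled so that every library has the same total (TPM), the summed level of the 76 genes was 7672 ± 129 for MII, 9343 ± 926 for 2C, 9602 ± 688 for 4C, 8697 ± 411 for 8C and 8359 ± 2128 for 16C. On that scale it was 13060 ± 609 for Morula, 8594 ± 269.6 for EarlyB and 7870 ± 1243 for ExpB. On the TPM scale the morula maximum therefore remained, while the blastocyst sums lay within the range of the cleavage stage means or just under it.

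**Figure D1:**
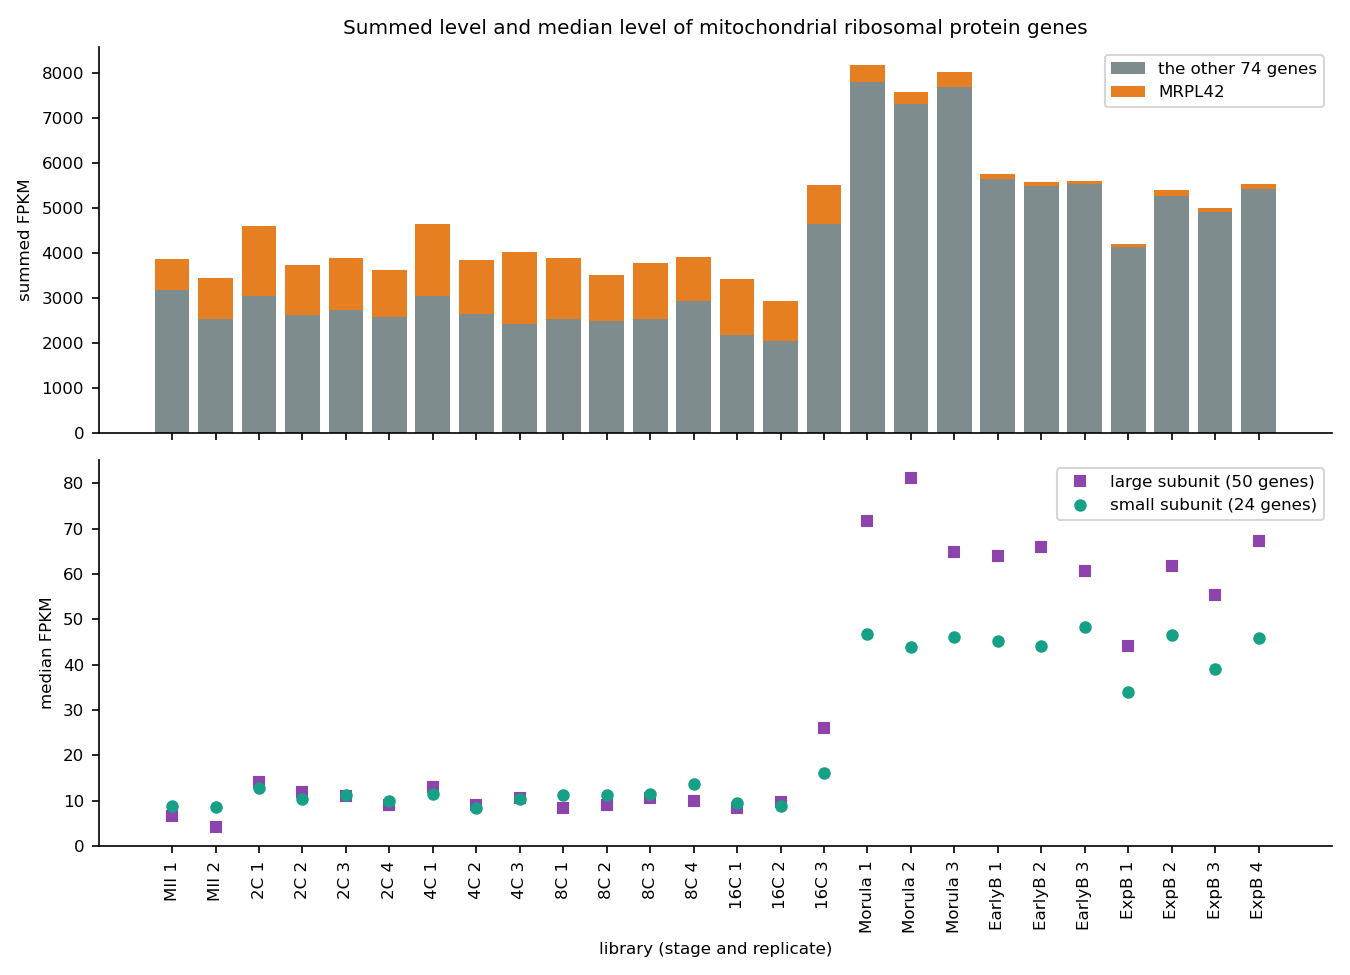
Upper panel: summed FPKM of the mitochondrial ribosomal protein genes in each of the 26 libraries, with the part of MRPL42 in orange. Lower panel: median FPKM of the 50 large subunit (squares) and 24 small subunit (circles) genes above 0. MRPL42 shrinks from morula on while both medians stand far higher than in any earlier library, and 16C 3 lies between the other 16C libraries and the morulae.

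The genes were most unlike each other in the oocyte and most alike in the early blastocyst. The SD across the 75 genes of their stage means, on the log2(FPKM + 1) scale, was 2.42 for MII, 2.24 for 16C, 1.94 for Morula, 1.43 for EarlyB and 1.66 for ExpB. In EarlyB the stage means ran between 6.46 FPKM for MRPL38 and 285.7 FPKM for MRPS24. At MII they ran between 0.0401 FPKM for MRPL9 and 804.7 FPKM for MRPL42.

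The order of the genes changed as well. The 10 highest genes at 2C and at 4C were the same 10, while the 10 highest at MII and in ExpB had 3 in common. MRPL42 led every stage through 16C, MRPL35 led in morulae at 630.3 FPKM, and MRPS24 led in EarlyB at 285.7 and in ExpB at 493 FPKM. The stage with the highest mean was Morula for 30 of the 75 genes, EarlyB for 28 and ExpB for 7. In the others it came earlier, with 2 genes peaking in MII, 3 in 2C, 1 in 4C, 3 in 8C and 1 in 16C. The lowest mean was at MII for 34 genes.

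**Figure D2:**
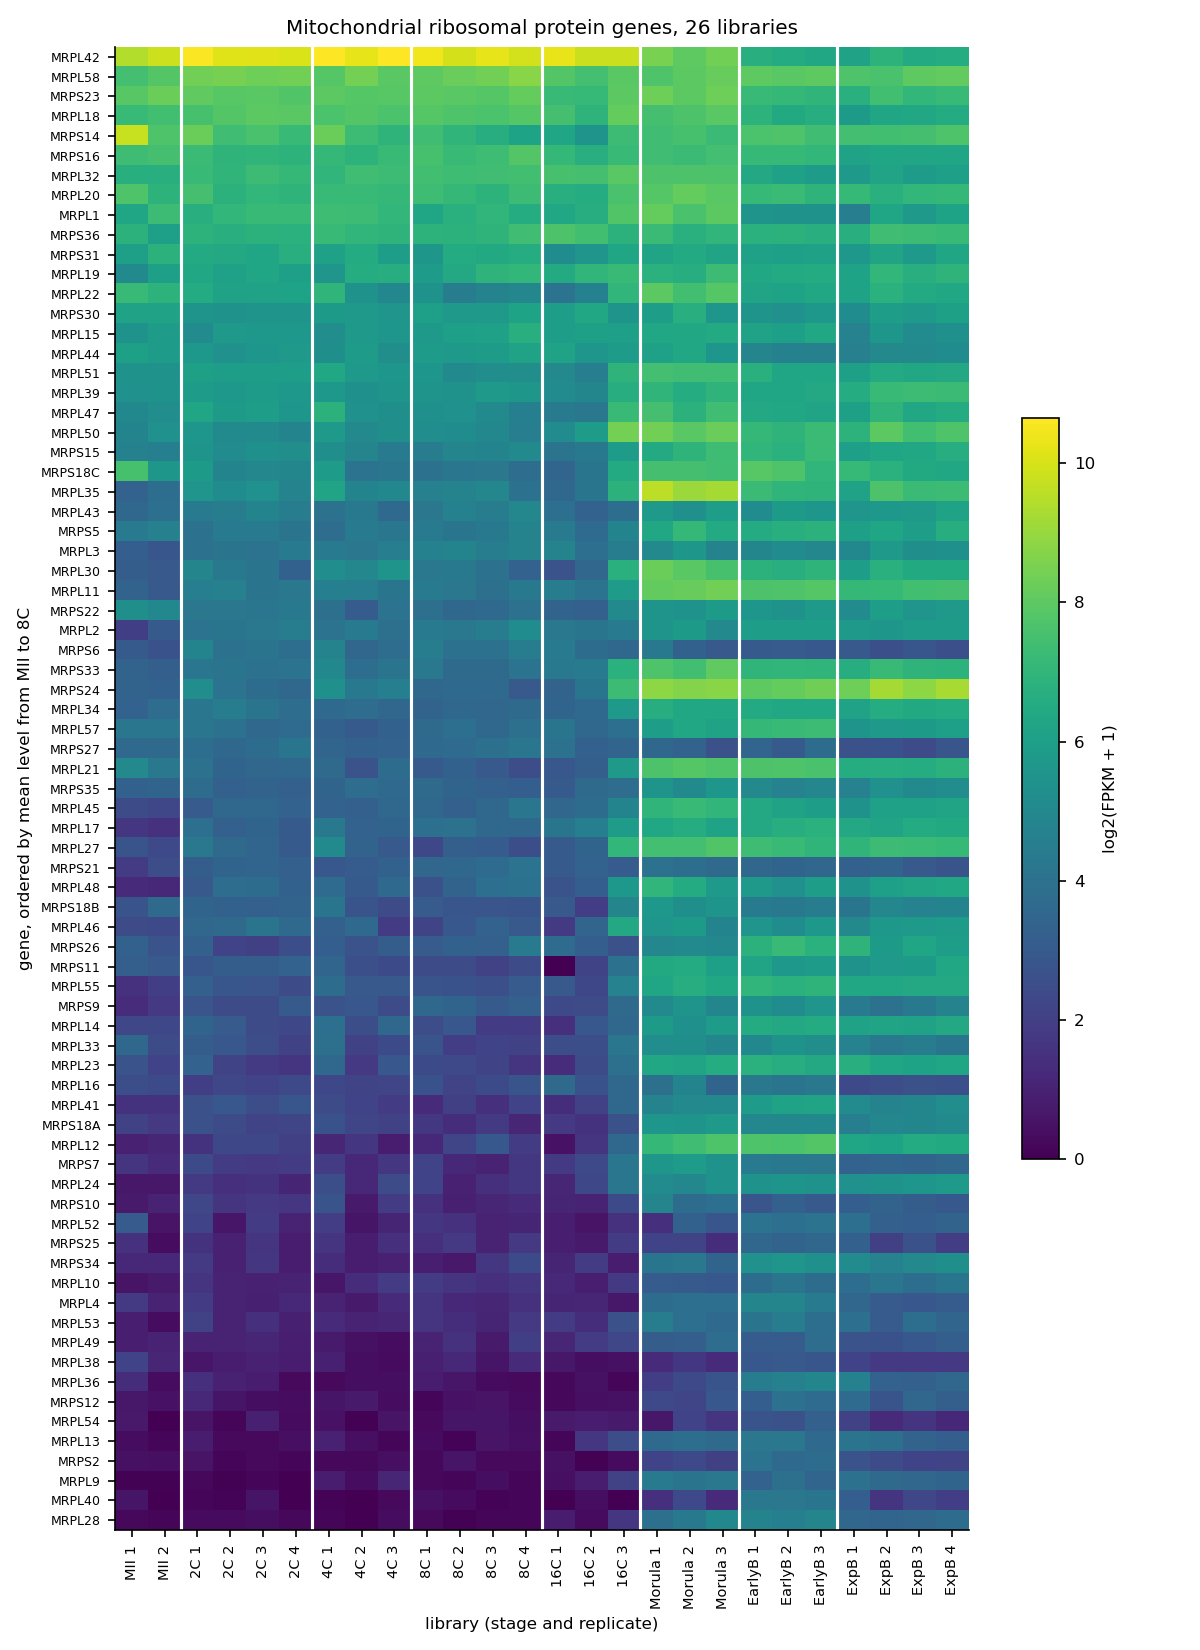
Level of each of 75 mitochondrial ribosomal protein genes as log2(FPKM + 1), 1 row per gene in order of mean level over MII to 8C, 1 column per library, white lines between stages. Rows at the top of the plot are bright in oocytes and cleavage embryos, and most other rows turn bright at the morula column block.

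A gene was called higher or lower in limma's moderated test when its Benjamini-Hochberg adjusted p over the 15766 tested genes stayed below 0.05 and its difference reached 1 or more in size. Tested genes reached 1 FPKM in at least 2 libraries, as 75 of the 76 members did. MRPL37, a mitochondria-specific protein of the large subunit, is listed at 0 in all 26 libraries and was the member not tested. The 16 libraries from MII to 16C alone would have let 70 members pass, so MRPS2, MRPL54, MRPS12, MRPL40 and MRPL28 entered through later libraries. Among the 70 alone, the calls given below for 75 would be 47 higher and 1 lower in Morula against 16C, 8 and 10 in EarlyB against Morula, 0 and 8 in ExpB against EarlyB, and 48 and 6 in ExpB against 2C. Counts of genes without overlap between stages were made over the 75 only.

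At the 2-cell stage against MII oocytes, 10 of the 75 genes were called higher and 0 lower, where 4.44% of all tested genes were called higher and 2.01% lower, 6.45% in all. The median difference of the 75 was 0.29 beside 0.08 for all tested genes, 0.54 beside 0.20 on the TPM scale, and 0.12 beside 0.00 with median-ratio scaling. At an unadjusted p under 0.05, limma had 18 higher and 7 lower, and limma-voom on recovered reads called 4 higher and 0 lower. The 10 were MRPS21, MRPS6, MRPL3, MRPL41, MRPS9, MRPL45, MRPL17, MRPL48, MRPL2 and MRPL11, so 7 large and 3 small subunit genes. When libraries were scaled by median ratios instead, 4 were called higher and 2 lower. Without MII 1, 3 were called higher and 0 lower, and without MII 2, 4 higher and 3 lower, with the single remaining MII library assumed to vary like those of other stages.

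MRPL48, a large subunit protein, had 6.87, 13.1, 12.7 and 9.03 FPKM in 2C embryos, against 1.48 and 1.28 FPKM in MII oocytes. Every 2C library lay above both MII libraries. The difference was 2.22 ± 0.54 (SE, adjusted p = 0.0097), a call that ended without MII 1 (adjusted p = 0.141) or MII 2 (adjusted p = 0.0561), with 0.00181 to 0.141 over 14 alternatives.

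MRPL17, another large subunit protein with a bacterial homolog, had 13.8, 8.49, 9.69 and 7.17 FPKM in 2C embryos, against 2.25 and 1.897 FPKM in MII oocytes (difference 1.78 ± 0.34, adjusted p = 0.00137). MRPL17 was not called by limma-voom (adjusted p = 0.056, with 0.000133 to 0.056 over 14 alternatives). MRPL2, which lies close to the catalytic centre of the large subunit, had 15.5, 16.6, 18.5 and 21.1 FPKM in 2C embryos, against 2.88 and 7.09 FPKM in MII oocytes (difference 1.75 ± 0.26, adjusted p = 0.000171). The groups did not overlap for either gene. In the count of such genes, 35 of the 75 had every 2C library above both MII libraries and 9 had every 2C library below them, against 26.75% and 10.95% of all tested genes.

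Between the early cleavage stages no member was called. For 4C against 2C, limma called 0 of 75 in either direction (0.00634% of all tested genes were called), with 3 at an unadjusted p under 0.05 and 0 calls by limma-voom. For 8C against 4C it also called 0 (0.907% of all tested genes, 0.577% higher and 0.33% lower), with 14 at an unadjusted p under 0.05 and 0 by limma-voom. The largest fitted differences were 1.08 for MRPL30 at 4C against 2C (adjusted p = 0.65) and -1.28 for MRPS24 at 8C against 4C (adjusted p = 0.268).

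At the 16-cell stage against the 8-cell stage, 5 genes were called higher and 0 lower, where 5.54% of all tested genes were called higher and 2.01% lower, 7.55% in all. At an unadjusted p under 0.05, limma had 16 higher and 7 lower, and limma-voom called 6 higher and 0 lower. On the TPM scale the calls were 7 higher and 1 lower. The 5 were MRPL50, MRPS33, MRPL13, MRPS7 and MRPL17, a share close to that of all genes. They rested on 16C 3, without which 0 were higher and 1 was lower and the median difference was -0.14 in place of 0.16. The other libraries also moved this count, which was 13 when 16C 1 was left out and 11 when 16C 2 was, and 2 for 8C 2, 2 for 8C 3 and 3 for 8C 4.

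MRPL50, a mitochondria-specific protein of the large subunit, had 34.0, 55.9 and 347.7 FPKM in the 16C libraries 1, 2 and 3, against 36.7, 35.6, 30.6 and 22.5 FPKM in 8C embryos. MRPS7, a small subunit protein that in bacteria organises the head of the subunit, had 2.52, 4.17 and 17.2 FPKM in 16C embryos, against 3.39, 1.35, 1.07 and 2.35 FPKM in 8C embryos. In both genes 16C 1 lay inside the 8C range and 16C 3 far above it. MRPS33, a small subunit protein, had 18.8, 19.7 and 111 FPKM in 16C embryos, against 17.99, 11.8, 11.8 and 15.6 FPKM in 8C embryos. MRPL17 had 16.8, 22.9 and 59.0 FPKM in 16C embryos, against 13.7, 15.02, 11.3 and 10.8 FPKM in 8C embryos. These last 2 genes had every 16C library above every 8C library, the nearest by under 1 FPKM for MRPS33. Fitted differences were 1.48 for MRPL50, 1.25 for MRPS7, 1.25 for MRPS33 and 1.12 for MRPL17 (adjusted p = 0.032, 0.0181, 0.0298 and 0.0119). Without 16C 3 they were 0.49, 0.55, 0.42 and 0.60 (adjusted p = 0.346, 0.192, 0.313 and 0.13), and over 15 alternatives the adjusted p of each of the 4 genes reached 0.359, 0.327, 0.348 and 0.218. Over the 75 genes, 48 had 16C 3 above every 8C library (64.0%, against 28.91% of all tested genes), and 7 had both other 16C libraries above every 8C library (9.33%, against 12.95%).

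The change at the morula was of another size. In morulae against 16C embryos, 51 of 75 genes were called higher and 1 lower, where 28.1% of all tested genes were called higher and 15% lower, 43.1% in all. The median difference was 1.97, beside 0.32 for all tested genes. On the TPM scale the median was 1.74 beside 0.18, with 49 higher and 1 lower, and with median-ratio scaling it was 1.74 beside 0.20, with 50 higher and 1 lower. Every morula lay above every 16C library for 53 genes and below for 1, against 34.95% and 19.7% of all tested genes. Every morula lay above all 16 libraries from MII to 16C for 46 genes (61.33%), against 27.29% of all tested genes. The counts of 53 and 46 include MRPS2, MRPS12, MRPL40 and MRPL28, which passed the filter only through later libraries. Without 16C 3, 57 were called higher and 1 lower.

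Large subunit genes were called higher in 35 of 50 cases, with MRPL42 lower. The 35 include MRPL40 and MRPL28, which passed the filter only through later libraries. MRPL12, which forms the stalk where translation factors bind and which in human cells also binds the mitochondrial RNA polymerase, had 134, 168 and 210.2 FPKM in morulae, against 0.440, 2.13 and 10.98 FPKM in 16C embryos. This was the widest gap of the family, with no overlap and a difference of 5.48 ± 0.48 (adjusted p = 2.67e-09). MRPL35, a large subunit protein with a bacterial homolog, had 767, 529 and 595 FPKM in morulae, against 11.1, 16.5 and 114 FPKM in 16C embryos (difference 4.43 ± 0.55, adjusted p = 3.96e-07). The lowest morula was more than 4-fold above 16C 3.

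MRPL23, at the mouth of the tunnel through which new proteins leave, had 79.5, 73.6 and 94.9 FPKM in morulae, against 1.55, 4.38 and 14.4 FPKM in 16C embryos (difference 3.80 ± 0.49, adjusted p = 7.09e-07). MRPL4, which lines that tunnel, had 12.8, 13.7 and 13.7 FPKM in morulae, against 1.13, 1.19 and 0.602 FPKM in 16C embryos (difference 2.88 ± 0.24, adjusted p = 1.68e-09). For MRPL4 the lowest 16C library was 16C 3. MRPL55, another large subunit protein, had 75.05, 97.8 and 80.8 FPKM in morulae, against 6.91, 3.96 and 25.3 FPKM in 16C embryos (difference 3.07 ± 0.37, adjusted p = 2.31e-07). None of these 3 genes overlapped between the stages.

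For some genes a 16C library came close to the morulae. MRPL50 had 329, 244 and 293 FPKM in morulae, against 34.0, 55.9 and 347.7 FPKM in 16C embryos, so that 16C 3 was above every morula. Its difference of 1.70 ± 0.50 (adjusted p = 0.00499) was no longer called without 16C 1 (adjusted p = 0.0649, with 1.19e-07 to 0.158 over 14 alternatives). MRPL48 had 129, 93.5 and 53.5 FPKM in morulae, against 5.54, 8.05 and 50.2 FPKM in 16C embryos (difference 2.59 ± 0.51, adjusted p = 0.000136), and its lowest morula was just above 16C 3. The call of MRPL48 ended when only these 2 stages were fitted (adjusted p = 0.0523, with 6.42e-08 to 0.0523 over 14 alternatives). MRPL2 had 44.8, 55.1 and 31.6 FPKM in morulae, against 18.3, 16.7 and 20.3 FPKM in 16C embryos (difference 1.18 ± 0.25, adjusted p = 0.000275). That difference was below 1, and so not called, on the TPM scale (0.82), with median-ratio scaling (0.95) and without Morula 2 (0.997).

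Small subunit genes were called higher in 16 of 24 cases and the 1 lower call of the family, MRPL42, was not among them. The 16 include MRPS2 and MRPS12, which passed the filter only through later libraries. MRPS24, the counterpart of a bacterial protein at the entry of the messenger RNA, had 464, 408 and 438 FPKM in morulae, against 9.49, 16.8 and 158.8 FPKM in 16C embryos (difference 3.82 ± 0.60, adjusted p = 1.02e-05). MRPS11, of the subunit's platform, had 86.8, 93.9 and 64.2 FPKM in morulae, against 0, 3.56 and 14.99 FPKM in 16C embryos (difference 4.29 ± 0.55, adjusted p = 5.83e-07). MRPS11 was at 0 reads in 16C 1 and had 91 to 446 reads in the other libraries from MII to 16C. Neither gene overlapped between the stages.

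MRPS7 had 48.5, 58.2 and 43.5 FPKM in morulae, against 2.52, 4.17 and 17.2 FPKM in 16C embryos (difference 2.87 ± 0.38, adjusted p = 9.7e-07). MRPS33 had 212, 171 and 264 FPKM in morulae, against 18.8, 19.7 and 111 FPKM in 16C embryos (difference 2.58 ± 0.41, adjusted p = 1.26e-05). MRPS12, whose bacterial counterpart sits at the decoding centre and is the site of streptomycin resistance, had 4.14, 3.71 and 6.39 FPKM in morulae, against 0.176, 0.365 and 0.407 FPKM in 16C embryos. No test is given for MRPS12 here, since it passed the filter only through later libraries. All 3 genes were apart between the stages, and MRPS12, with 5 to 48 reads per library from MII to 16C, was among the lowest members before the morula.

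**Figure D3:**
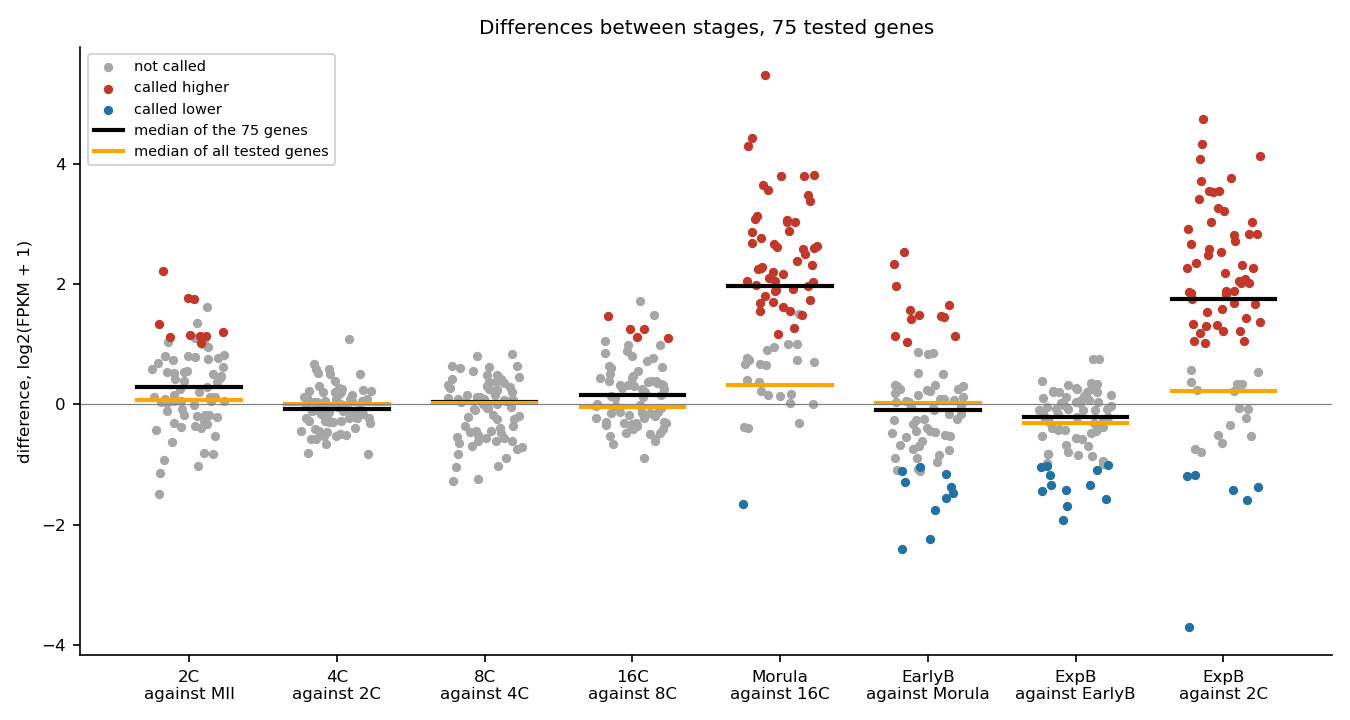
Fitted difference of each of 75 genes on the log2(FPKM + 1) scale in the 8 stage comparisons, later stage minus earlier, 1 point per gene (red called higher, blue called lower, grey not called), with the median of these genes (black) and of all 15766 tested genes (orange). The morula comparison has 51 red points and the comparison of early and expanded blastocysts has 12 blue and 0 red points.

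A few genes ran the other way and were lower in blastocysts than in cleavage embryos. MRPL42, a mitochondria-specific protein of the large subunit, had 364, 254 and 337 FPKM in morulae, against 1257, 895 and 885 FPKM in 16C embryos. Its lowest 16C library was more than 2-fold above its highest morula, and the difference was -1.66 ± 0.22 (adjusted p = 8.78e-07). In earlier libraries it ran between 690.4 and 1609 FPKM. In EarlyB it had 104, 94.1 and 81.1 FPKM, against the morula values above (difference -1.76 ± 0.22, adjusted p = 9.94e-07).

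MRPL18, a large subunit protein of the central protuberance, had 54.3, 76.1, 79.8 and 92.3 FPKM in ExpB, against 189, 225, 247 and 241 FPKM in 2C embryos (difference -1.58 ± 0.20, adjusted p = 1.32e-07). The groups did not overlap. MRPL18 had 116, 87.4 and 98.1 FPKM in EarlyB, against 182, 205 and 239 FPKM in morulae (difference -1.05 ± 0.23, adjusted p = 0.00061), and the morulae lay within the 2C range or just under it. That difference was -0.94 without Morula 3 and -0.95 without EarlyB 2, and so not called. MRPS6, a small subunit protein with a bacterial homolog, had 6.90, 5.04, 6.28 and 5.12 FPKM in ExpB, against 27.1, 15.1, 16.0 and 13.3 FPKM in 2C embryos (difference -1.42 ± 0.28, adjusted p = 8.3e-05).

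MRPS6 had also been called higher in 2C embryos than in MII oocytes, which had 7.17 and 5.43 FPKM (difference 1.33 ± 0.34, adjusted p = 0.0142). That call ended without either MII library (adjusted p = 0.116 without MII 1 and 0.11 without MII 2, with 0.00108 to 0.116 over 14 alternatives). MRPS27, a pentatricopeptide repeat protein of the small subunit, had 5.18, 5.45, 4.36 and 6.21 FPKM in ExpB, against 13.4, 11, 12.4 and 16.6 FPKM in 2C embryos (difference -1.18 ± 0.21, adjusted p = 1.74e-05). MRPS16, a small subunit protein with a bacterial homolog, was highest at 8C, with 186, 149, 159.7 and 222 FPKM. It had 69.6, 78.5, 77.0 and 78.3 FPKM in ExpB, against 152, 121, 124 and 118 FPKM in 2C embryos (difference -0.75 ± 0.14, adjusted p = 6.3e-05, under the size required for a call). In all of MRPS6, MRPS27 and MRPS16 the ExpB libraries lay below every 2C library.

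Early blastocysts and morulae differed in both directions, with shares of calls close to those of all genes. In EarlyB against Morula, 12 of 75 genes were called higher (16%) and 10 lower (13.3%). Of all tested genes, 14.7% were called higher and 12.4% lower. The median difference was -0.10 beside 0.03 for all genes. On the TPM scale the split was 10 higher and 14 lower (median -0.21 beside -0.03), and with median-ratio scaling 11 higher and 12 lower (median -0.20 beside -0.02). Every EarlyB library lay above every morula for 17 genes and below for 30, against 27.84% and 23.37% of all tested genes. Large subunit genes were called 7 higher and 7 lower, and small subunit genes 5 higher and 3 lower.

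The genes called higher were MRPL41, MRPL54, MRPL52, MRPL57, MRPL38, MRPL36 and MRPL40 of the large subunit and MRPS2, MRPS26, MRPS12, MRPS25 and MRPS34 of the small one. MRPL40, a mitochondria-specific protein, had 18.4, 17.6 and 16.5 FPKM in EarlyB, against 1.69, 4.11 and 1.39 FPKM in morulae (difference 2.53 ± 0.30, adjusted p = 5.36e-07). Up to 16C it had 0 to 13 reads per library, and it was at 0 in 5 libraries. MRPL36, with a bacterial homolog, had 21.4, 23.96 and 28.9 FPKM in EarlyB, against 2.77, 4.06 and 5.89 FPKM in morulae (difference 2.33 ± 0.33, adjusted p = 6.32e-06).

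MRPS26, a mitochondria-specific small subunit protein, had 113, 144 and 112 FPKM in EarlyB, against 29.3, 32.2 and 30.0 FPKM in morulae (difference 1.97 ± 0.35, adjusted p = 7.44e-05). Together with MRPL36 it rose at both steps, with 12.03, 8.10 and 5.17 FPKM at 16C. MRPS12 had 8.19, 14.7 and 12.2 FPKM in EarlyB, against 4.14, 3.71 and 6.39 FPKM in morulae (difference 1.14 ± 0.26, adjusted p = 0.000953), and was not called without EarlyB 2 (0.97). None of these 4 genes overlapped between morulae and early blastocysts.

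The genes called lower were MRPL44, MRPL35, MRPL42, MRPL32, MRPL22, MRPL1 and MRPL18 of the large subunit and MRPS23, MRPS7 and MRPS10 of the small one. MRPL1, which builds the mobile stalk at the exit site for transfer RNA, had 44.8, 43.4 and 43.9 FPKM in EarlyB, against 277, 191 and 251 FPKM in morulae (difference -2.40 ± 0.36, adjusted p = 1.15e-05). MRPL35 had 152, 123 and 120.5 FPKM in EarlyB, against 767, 529 and 595 FPKM in morulae (difference -2.24 ± 0.55, adjusted p = 0.00189), and was thus a gene with a peak in the morula. MRPS23, a mitochondria-specific small subunit protein, had 143, 134 and 124 FPKM in EarlyB, against 313, 247 and 311 FPKM in morulae (difference -1.11 ± 0.20, adjusted p = 8.44e-05). MRPS7 had 19.9, 18.1 and 17.5 FPKM in EarlyB, against 48.5, 58.2 and 43.5 FPKM in morulae (difference -1.38 ± 0.38, adjusted p = 0.00472). Every EarlyB library was below every morula in these 4 genes.

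In expanded against early blastocysts, 0 genes were called higher and 12 lower (16%), where 4.65% of all tested genes were called higher and 13.1% lower. The share called lower was thus close to that of all genes. At an unadjusted p under 0.05, limma had 1 higher and 21 lower, and limma-voom called 0 higher and 12 lower. The median difference was -0.21, beside -0.30 for all genes. Median-ratio scaling turned the median to 0.17, beside -0.09 for all genes, and gave 1 higher and 6 lower. Every ExpB library lay above every EarlyB library for 1 gene and below for 24, against 11.42% and 37.22% of all tested genes.

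The 12 genes were MRPL41, MRPL4, MRPL54, MRPL57, MRPL12, MRPL38, MRPL16, MRPL40 and MRPL28 of the large subunit and MRPS2, MRPS9 and MRPS25 of the small one. MRPL40 had 8.12, 2.14, 3.86 and 2.98 FPKM in ExpB, against 18.4, 17.6 and 16.5 FPKM in EarlyB (difference -1.93 ± 0.28, adjusted p = 1.38e-05). MRPL16, a core large subunit protein with a bacterial homolog, had 4.16, 4.68, 5.16 and 5.11 FPKM in ExpB, against 18.03, 16.1 and 18.5 FPKM in EarlyB (difference -1.68 ± 0.25, adjusted p = 1.59e-05). The ExpB level of MRPL16 thus lay back in the range of its MII to 8C libraries, 2.98 to 5.88 FPKM.

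MRPL4 had 10.5, 7.44, 6.34 and 7.56 FPKM in ExpB, against 27.9, 27.6 and 20.5 FPKM in EarlyB (difference -1.56 ± 0.23, adjusted p = 1.35e-05). MRPL12 had 75.9, 72.5, 91.9 and 88.2 FPKM in ExpB, against 212, 197 and 220.4 FPKM in EarlyB (difference -1.35 ± 0.45, adjusted p = 0.0195). All 4 genes named with values were apart between the stages. The call of MRPL12 ended without EarlyB 1 (adjusted p = 0.0516) and without EarlyB 3 (adjusted p = 0.0563). It also ended with a pseudocount of 0.1 (adjusted p = 0.0883) and with median-ratio scaling (difference -0.97, adjusted p = 0.108). Over 15 alternatives the adjusted p of MRPL12 ran between 0.000524 and 0.108.

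Over the whole span from 2-cell to expanded blastocyst, most of the family was higher at the end. In ExpB against 2C, 53 genes were called higher and 6 lower, where 30.7% of all tested genes were called higher and 23.6% lower, and the median difference was 1.75 beside 0.23 for all genes. On the TPM scale the split was 41 higher and 11 lower, and the median was 1.27 beside 0.00. Every ExpB library lay above every 2C library for 54 genes and below for 11, against 42.67% and 32.56% of all tested genes. The 54 include MRPS2, MRPL54, MRPS12, MRPL40 and MRPL28, which passed the filter only through later libraries. The 6 lower genes were MRPS6, MRPL42, MRPL32, MRPL1, MRPL18 and MRPS27.

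MRPS24 had 316, 588, 458 and 610.3 FPKM in ExpB, against 36.8, 15.8, 12.5 and 10.7 FPKM in 2C embryos, a difference of 4.75 ± 0.52 (adjusted p = 2e-08). MRPL12 had 75.9, 72.5, 91.9 and 88.2 FPKM in ExpB, against 1.96, 3.92, 3.93 and 3.07 FPKM in 2C embryos (difference 4.32 ± 0.41, adjusted p = 1.96e-09). MRPL23 had 104, 76.4, 70.7 and 75.3 FPKM in ExpB, against 9.13, 3.51, 2.48 and 2.01 FPKM in 2C embryos (difference 4.12 ± 0.43, adjusted p = 6.91e-09). The lowest ExpB library stood more than 7-fold above the highest 2C library in each of these 3 genes.

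The opposite end was MRPL42, with 68.7, 119, 89.3 and 95.6 FPKM in ExpB, against 1556, 1115, 1149 and 1058 FPKM in 2C embryos (difference -3.71 ± 0.19, adjusted p = 2.98e-14). MRPL1 had 22.9, 76.4, 52.2 and 72.2 FPKM in ExpB, against 105, 133, 150.2 and 148 FPKM in 2C embryos (difference -1.37 ± 0.31, adjusted p = 0.000427). Both genes were apart between the groups. The MRPL1 difference was -0.99 without ExpB 1, just under the size required for a call.

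**Figure D4:**
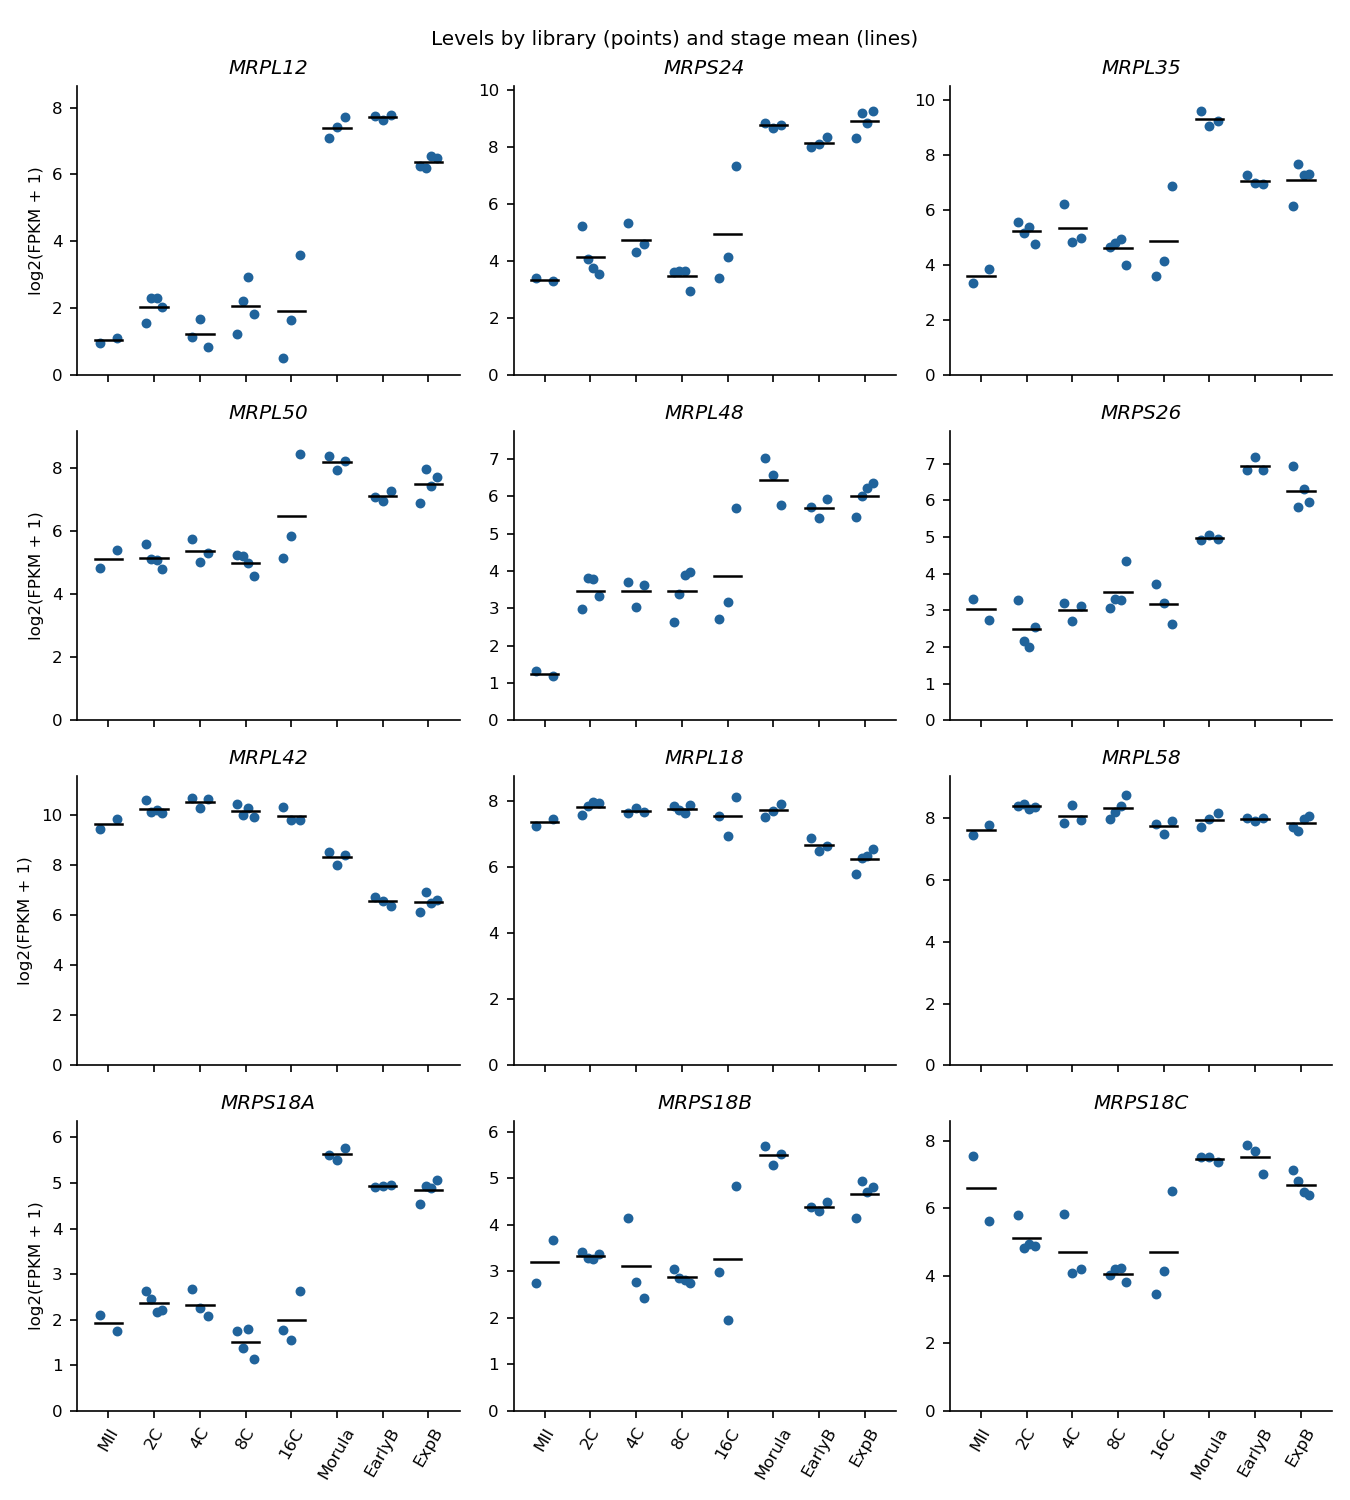
Level of 12 named genes as log2(FPKM + 1) in each library (points) with the stage mean of those values (lines), from MII to ExpB. MRPL12, MRPS24 and MRPL35 are far higher from the morula on, MRPL42 and MRPL18 fall, MRPL58 is nearly level, and 16C 3 is the highest 16C point in most panels.

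Not every gene took part. Across the 8 comparisons 9 of the 75 tested genes were never called, namely MRPL15, MRPL19, MRPL20, MRPL58, MRPS14, MRPS16, MRPS30, MRPS31 and MRPS36, and all 9 had stage means above 37 FPKM at every stage. MRPL58, a release factor-like hydrolase that frees stalled ribosomes and is built into the large subunit, ran between 176 FPKM at MII and 434 FPKM at 8C. In ExpB it had 212, 193, 254 and 271 FPKM, against 336, 350.4, 317 and 329 FPKM in 2C embryos (difference -0.53 ± 0.17, adjusted p = 0.00811, under the size required for a call).

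MRPS30, a large subunit protein in spite of its symbol, had the narrowest spread of stage means, with MII at 68.5 and 68.9, 2C at 42.9 to 45.2, Morula at 47.1 to 101 and ExpB at 35.8 to 65.9 FPKM. MRPS31, a mitochondria-specific small subunit protein, ran between 35.1 FPKM at 16C and 115 FPKM at MII. MRPS14, a small subunit protein with a bacterial homolog, had 307, 164, 191 and 142 FPKM in 2C embryos, against 867 and 209 FPKM in MII oocytes. Its MII libraries thus differed more than 4-fold, and MII 1 held the highest value of MRPS14 in the series. MRPS36, the dehydrogenase subunit, had stage means between 88.8 FPKM at MII and 164.7 FPKM at 16C.

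The 3 MRPS18 genes are paralogs of 1 bacterial protein, of which MRPS18A joins the large subunit and MRPS18B and MRPS18C the small one. MRPS18A had 47.9, 44.7 and 53.3 FPKM in morulae, against 2.41, 1.94 and 5.17 FPKM in 16C embryos (difference 3.65 ± 0.24, adjusted p = 4.89e-11). MRPS18B had 50.6, 38.1 and 45.0 FPKM in morulae, against 6.96, 2.84 and 27.6 FPKM in 16C embryos (difference 2.24 ± 0.47, adjusted p = 0.000239), a call of MRPS18B that ended when only these 2 stages were fitted (adjusted p = 0.0531, with 2.97e-07 to 0.0531 over 14 alternatives). MRPS18C had 182, 181 and 165 FPKM in morulae, against 10.01, 16.6 and 90.04 FPKM in 16C embryos (difference 2.76 ± 0.57, adjusted p = 0.000207). All 3 rose without overlap at the morula, and MRPS18C was the highest of them at every stage.

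The oocyte set MRPS18C further apart. It had 54.6, 27.3, 29.4 and 28.4 FPKM in 2C embryos, against 187 and 48.2 FPKM in MII oocytes, so that MII 1 was above every morula. In ExpB against 2C, MRPS18A was higher by 2.48 ± 0.21 (adjusted p = 1.87e-10), MRPS18B by 1.32 ± 0.40 (adjusted p = 0.00525) and MRPS18C by 1.59 ± 0.49 (adjusted p = 0.00559). On the TPM scale MRPS18B (0.79) and MRPS18C (adjusted p = 0.0524) were not called, with 0.000131 to 0.091 over 16 alternatives for MRPS18B and 0.000559 to 0.0524 for MRPS18C.

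Positions of 74 members were found in a sheep reference gene table, and 24 of them overlap another gene there. That table is of an assembly that may differ from the one behind the FPKM, so the overlaps may differ too. Among these are MRPS12 with SARS2, the mitochondrial seryl-tRNA synthetase, MRPL55 with GUK1, MRPS18C with ABRAXAS1, MRPS7 with MIF4GD and MRPS6 with SLC5A3. How the counting treated strand and shared reads is not given in the sources used here, so the levels of these 24 genes are uncertain where a neighbour is transcribed.

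The genes were also counted by subunit and by origin. In morulae against 16C embryos, 70% of the 50 large subunit and 66.7% of the 24 small subunit genes were called higher, with medians of 1.98 and 2.00. Of 46 genes with a bacterial homolog 34 were called higher (median 2.25), and of 28 tested mitochondria-specific genes 17 (median 1.58). Of all tested genes, 28.1% were called higher there. These class counts include MRPS2, MRPS12, MRPL40 and MRPL28, which passed the filter only through later libraries. The class counts of the later comparisons also include genes that passed in this way, and none was repeated without them. In EarlyB against Morula, 3 genes with a bacterial homolog were called higher (6.52%) and 7 lower (15.2%), with a median of -0.13. Of the mitochondria-specific genes 9 were called higher (32.1%) and 3 lower (10.7%), with a median of -0.05. Of all tested genes, 14.7% were called higher and 12.4% lower, so the lower shares of both classes were near that of all genes. In ExpB against 2C, 36 large (72%) and 17 small subunit genes (70.8%) were called higher, with medians of 1.89 and 1.41, where 30.7% of all tested genes were called higher. At MII the median level was 4.31 and 6.57 FPKM for large and 8.60 and 8.89 FPKM for small subunit genes in the 2 libraries. From morula on the large subunit median, 44.2 to 81.3 FPKM over 10 libraries, was above the small subunit median of the same library, 33.9 to 48.4 FPKM, in each of them. No test compared the classes.

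The partners of these proteins were read from lists of genes. Of all tested genes, 28.1% were called higher and 15% lower in morulae against 16C embryos. In ExpB against 2C these shares were 30.7% and 23.6%. Counts of these and later lists were not repeated for genes passing the filter up to 16C alone. TARS2, LARS2, RBFA, TRUB2 and PPARGC1B, counted as higher below, had stage means up to 0.2251 FPKM from MII to 16C. They passed the filter only through later libraries. The 5 ribosomal proteins tested under other names had 4 called higher and 0 lower in morulae against 16C embryos. In ExpB against 2C, 3 of the 5 were called higher, among them AURKAIP1, with 40.4 ± 4.38 FPKM in ExpB and 7.001 ± 0.913 FPKM in 2C embryos (SD, n = 4 each), and GADD45GIP1, with 24.8 ± 7.57 FPKM in ExpB and 6.66 ± 1.42 FPKM in 2C embryos. DAP3, a GTP-binding protein of the small subunit, had 31.5 ± 4.73 FPKM in morulae and 23.6 ± 2.89 FPKM in 16C embryos (difference 0.40 ± 0.18, adjusted p = 0.0554).

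Assembly factors of the mitochondrial ribosome were called 11 higher and 2 lower of 22 in morulae against 16C embryos, and 13 higher and 3 lower in ExpB against 2C. METTL17, needed for assembly of the small subunit, had 17.7 ± 3.65 FPKM in ExpB and 0.0671 ± 0.125 FPKM in 2C embryos. MALSU1, which binds the large subunit during assembly, had 22.0 ± 1.77 FPKM in ExpB and 0.784 ± 0.468 FPKM in 2C embryos. MALSU1 was already higher in 16C embryos, at 18.7 ± 6.12 FPKM, than in 8C embryos, at 1.66 ± 0.998 FPKM (difference 2.91 ± 0.28, adjusted p = 9.71e-08). The lower ones at the morula were TFB1M, a methyltransferase of the small ribosomal RNA, and MTERF3.

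Translation factors were called in both directions, as were all tested genes. Of 12, 6 were higher (50%) and 2 lower (16.7%) in morulae against 16C embryos, beside 28.1% and 15% of all tested genes. In ExpB against 2C 5 were higher (41.7%) and 4 lower (33.3%), beside 30.7% and 23.6%. TUFM, the elongation factor that brings transfer RNA, had 39.7 ± 5.45 FPKM in ExpB and 2.33 ± 0.382 FPKM in 2C embryos (difference 3.61 ± 0.28, adjusted p = 4.31e-11). GFM2, a factor of ribosome recycling, had 2.08 ± 0.226 FPKM in ExpB and 38.0 ± 2.69 FPKM in 2C embryos (difference -3.66 ± 0.27, adjusted p = 1.79e-11). At the morula the lower ones were GFM2 and the release factor-like MTRF1.

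Of 16 mitochondrial tRNA synthetases 5 were called higher (31.2%) and 1 lower (6.25%) in morulae against 16C embryos, beside 28.1% and 15% of all tested genes. In ExpB against 2C, 8 were called higher and 1 lower. The lower one was RARS2, with 4.33 ± 1.05 FPKM in ExpB and 25.5 ± 2.17 FPKM in 2C embryos. WARS2 had 9.28 ± 1.56 FPKM in ExpB and 1.45 ± 0.338 FPKM in 2C embryos. Of 8 genes of mitochondrial RNA synthesis and stability 5 were higher and 1 lower, with TFAM, which packs mitochondrial DNA, at 27.0 ± 4.55 FPKM in ExpB and 0.675 ± 0.371 FPKM in 2C embryos. LRPPRC, which stabilises mitochondrial messenger RNA, had 61.1 ± 17.1 FPKM in ExpB and 4.18 ± 2.30 FPKM in 2C embryos.

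Of 8 known regulators of nuclear genes for mitochondria 4 were higher and 2 lower in ExpB against 2C. In morulae against 16C embryos 1 was higher and 1 lower (12.5% each), beside 28.1% and 15% of all tested genes. The coactivator PPARGC1B had 2.81 ± 0.414 FPKM in ExpB and 0.0629 ± 0.0512 FPKM in 2C embryos. Its relative PPARGC1A had 0.233 ± 0.0734 FPKM in ExpB and 3.30 ± 0.330 FPKM in 2C embryos (difference -1.80 ± 0.19, adjusted p = 1.01e-08). Over the partners of the ribosome as 1 list of 63 genes, 31 were higher and 5 lower in morulae against 16C embryos and 34 higher and 9 lower in ExpB against 2C, with medians of 0.98 and 1.13. The background shares given for these comparisons apply to these counts as well.

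The ribosomal RNAs of the mitochondrion were called higher in morulae than in 16C embryos and higher again in EarlyB. The larger one had 736 ± 131 FPKM in morulae and 140.0 ± 17.4 FPKM in 16C embryos (n = 3 each; difference 2.38 ± 0.30, adjusted p = 4.61e-07). It had 7501 ± 1381 FPKM in EarlyB, against the morula level above (n = 3; difference 3.35 ± 0.30, adjusted p = 1.08e-08). The smaller one had 878 ± 97.3 FPKM in EarlyB and 197 ± 86.8 FPKM in morulae (difference 2.23 ± 0.40, adjusted p = 7.89e-05). Poly(A) selection catches these RNAs through their short tails, so the values need not follow their total amount. The messenger RNAs of mitochondrial DNA and of the nucleus were also read as poly(A) RNA. For them too, a changed tail and a changed amount cannot be told apart.

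Cytosolic ribosomal protein genes, set beside the mitochondrial ones, had more calls at the 16-cell stage. Of 76, 38 were called higher (50%) and 0 lower in 16C against 8C embryos, where the mitochondrial ones had 5 of 75 and all tested genes 5.54% higher. Without 16C 3, 11 cytosolic ones were called higher and 0 lower, while 0 mitochondrial ones were higher and 1 was lower. In morulae against 16C embryos the cytosolic ones were 71 higher and 0 lower (median 2.42), where 28.1% of all tested genes were called higher. In EarlyB against Morula they were 25 higher (32.9%) and 0 lower (median 0.97), beside 14.7% of all tested genes called higher. In ExpB against 2C they were 76 higher and 0 lower (median 4.51), beside 30.7%. RPL34 had 1464 ± 362 FPKM in ExpB and 12.2 ± 10.8 FPKM in 2C embryos, and RPL22 had 503.5 ± 211 FPKM in ExpB and 3.93 ± 3.99 FPKM in 2C embryos. The difference between the families was not tested.

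Genes of the respiratory chain and the ATP synthase, of which the mitochondrial ribosome makes only the subunits encoded by mitochondrial DNA, were mostly higher too. Nuclear-encoded respiratory chain and ATP synthase subunits were 51 higher and 1 lower of 57 in morulae against 16C embryos (median 2.63), and 52 higher and 1 lower in ExpB against 2C (median 2.71). In these comparisons 28.1% and 30.7% of all tested genes were called higher. ATP5ME had 1451 ± 641 FPKM in ExpB and 12.6 ± 10.6 FPKM in 2C embryos, and NDUFA1 had 1379 ± 307 FPKM in ExpB and 32.2 ± 10.7 FPKM in 2C embryos. The 13 protein genes of mitochondrial DNA were 10 higher and 0 lower at the morula (median 1.47), again 10 and 0 in EarlyB against Morula (median 1.40), and 12 and 0 in ExpB against 2C (median 4.32). In EarlyB against Morula 14.7% of all tested genes were called higher. COX2 had 13940.0 ± 2447 FPKM in ExpB and 237.8 ± 84.5 FPKM in 2C embryos, and COX1 had 10860.0 ± 1353 FPKM in ExpB and 187 ± 58.1 FPKM in 2C embryos.

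**Figure D5:**
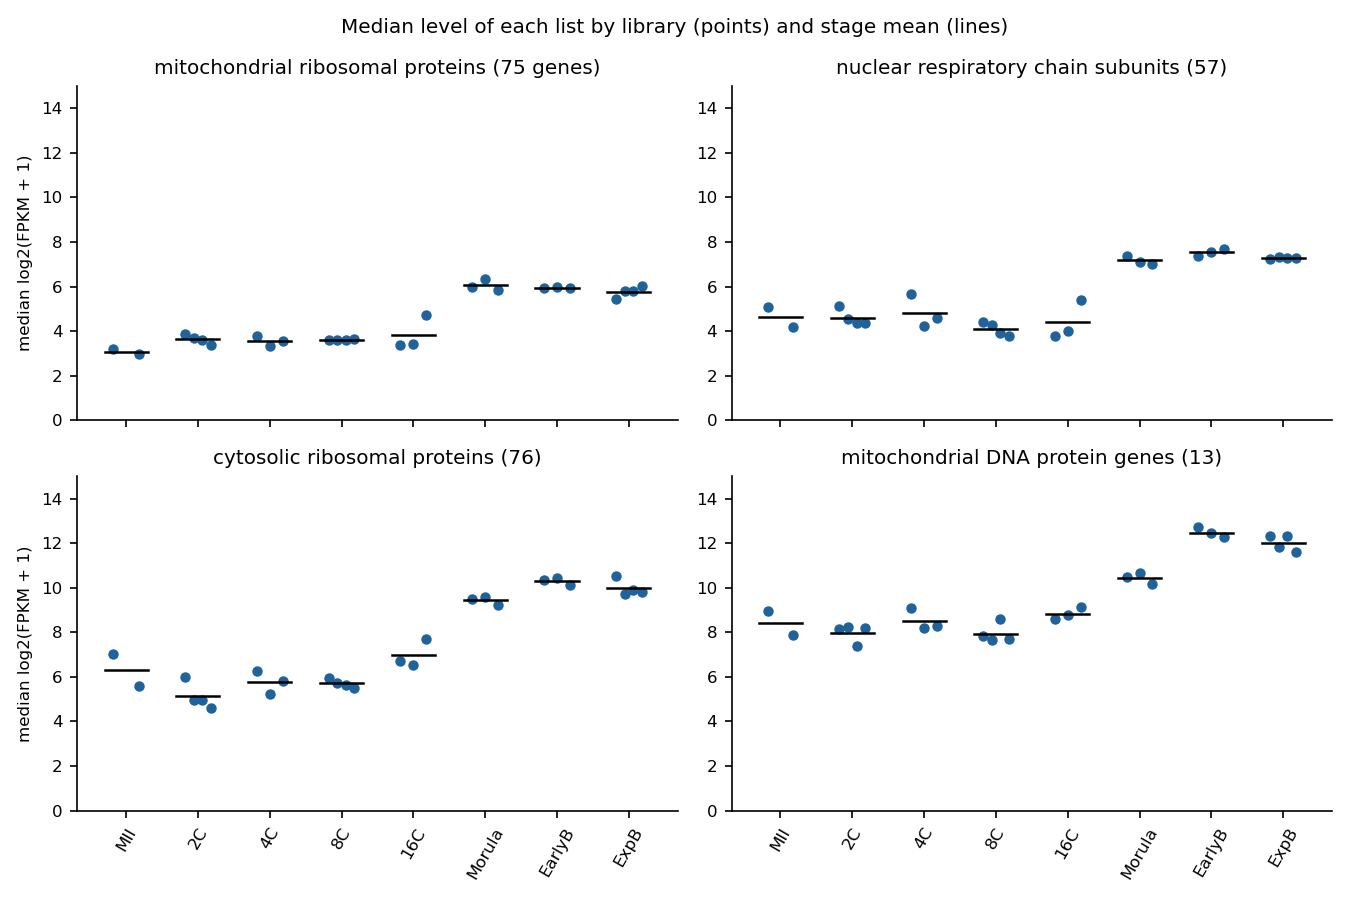
Median log2(FPKM + 1) of 4 gene lists in each library (points) with the mean of these medians per stage (lines), from MII to ExpB, on a common axis. The mitochondrial ribosomal proteins and the nuclear respiratory chain subunits step up at the morula and change less after it. The mitochondrial DNA genes and, by less, the cytosolic ribosomal proteins step up again in early blastocysts.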

How the data were processed

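The authors deposited 1 table of FPKM values, 30186 genes by 26 libraries, without counts. The tools, per the submitters' processing notes, included featureCounts 2.0.1, SAMtools 1.9, HISAT2 2.1.0 and fastp 0.23.4. For the genome build, the annotation and the strand setting, nothing was given in the sources used here, so no coordinates or sequences are printed. Depth comes from the spacing of low deposited FPKM values: 23569 of 23577 genes examined have a length that turns their values into whole reads within a tolerance of at most 0.2 reads (values whose rounding was coarser were not used), and the recovered reads held 99.866 to 99.949% of each library's reads. Reads carry no molecular identifiers and are not independent molecules.

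Values were analysed as log2(FPKM + 1) with limma 3.58.1 in R 4.3.3: 8 stage means over 26 libraries, contrasts and eBayes with a trend (18 residual and 4.6 prior degrees of freedom), two-sided, Benjamini-Hochberg adjustment within a contrast over 15766 genes at 1 FPKM or more in at least 2 libraries. A call required an adjusted p under 0.05 and a difference of at least 1. The fit was tested on simulated data with known changes. Alternatives were a pseudocount of 0.1, no filter, TPM, median-ratio scaling, adjusted p alone, only the 2 stages fitted, a replicate block, and leaving out each library of the stages compared. The replicate numbers were not taken as pairs.

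Genes named with values were, per contrast, the 3 called genes with the largest rise and fall, the 5 highest, the 5 widest and 3 narrowest in range, up to 5 early-high genes, genes failing the filter, and MRPS12, MRPL12, MRPL58, MRPS36 and MRPS18A, MRPS18B and MRPS18C for their roles. Of each other list the 2 called genes with the largest ExpB against 2C difference were named, and the morula values of other genes were chosen after they were seen. Subunit and origin classes follow current mitochondrial ribosome nomenclature as known from mammals, and 4 origin classes (MRPS24, MRPS28, MRPL47, MRPL55) were corrected after values were seen. The members and lists were chosen with earlier results of these data known. List genes not in the table were not analysed here.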

Additional observations from a re-analysis of the deposited data

Results flagged for a closer look

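Sets of 4 libraries of a stage were examined, in FPKM, for the named genes and for the summed level of the members. Among 102 such sets, 10 had a library whose gap to the nearest other, over the whole range, passed Dixon's critical value. About 1 in 20 sets would pass by chance if FPKM were normally distributed within a stage, which was not tested. That is a lower share than 10 of 102, and the sets share libraries. In the library 2C 1 the flagged values were MRPS7 at 4.30 FPKM, above 2.44 to 2.69 in the other 2C libraries, MRPS16 at 152.1 FPKM, above 118 to 123.5, and MRPS18C at 54.6 FPKM, above 27.3 to 29.4. In ExpB 1, MRPL36 stood at 24.6 FPKM, above 8.69 to 10.4 in the other ExpB libraries, and MRPS16 at 69.6 FPKM, below 77.0 to 78.5. ExpB 1 also had the lowest summed level of these genes in its stage, 4200 FPKM, and the highest ExpB level of 71 of 76 cytosolic ribosomal protein genes.

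In the 8C libraries such values were MRPS26 at 19.2 FPKM in 8C 4, above 7.34 to 8.83, MRPS36 at 166.6 FPKM in 8C 4, above 115 to 121, and MRPS24 at 6.81 FPKM in 8C 4, below 11.2 to 11.6. MRPS31 stood at 48.9 FPKM in 8C 1, below 88.0 to 94.8, and MRPS11 at 3.20 FPKM in 8C 3, below 4.40 to 4.53. Stages with 2 or 3 libraries, 16C among them, were not examined in this way.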

How the results depend on the processing

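Of 118 combinations of a call count and an alternative, 102 stayed within 1.5 times the reported count. For 16C against 8C, with 5 called, the count was 2 without the filter on low values, 8 on the TPM scale, 12 with adjusted p alone, 0 with only the 2 stages fitted, and 1 to 13 when 1 library was left out. For 2C against MII, with 10 called, it was 6 with median-ratio scaling, 4 with limma-voom on recovered reads, an alternative chosen after seeing the data, and 3 to 9 with 1 library left out. For ExpB against EarlyB, with 12 called, it was 7 with median-ratio scaling and 9 to 13 with 1 library left out. For 8C against 4C, with 0 called, it was 1 with a pseudocount of 0.1. With 1 library left out the counts were 50 to 58 for Morula against 16C, 18 to 22 for EarlyB against Morula and 55 to 59 for ExpB against 2C, and 0 throughout for 4C against 2C and 8C against 4C. The cause of these shifts was not tested.

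The median difference turned sign to -0.077 for 8C against 4C and 0.172 for ExpB against EarlyB with median-ratio scaling, to 0.025 and 0.001 for 4C against 2C without 2C 1 and 4C 2, to -0.05 for 8C against 4C without 4C 2, and to -0.14 for 16C against 8C without 16C 3. With 1 library left out these medians ran between -0.127 and 0.025 for 4C against 2C, between -0.05 and 0.062 for 8C against 4C, and between -0.14 and 0.403 for 16C against 8C. Of 68 calls of named genes over 1010 alternative fits, 967 kept call and direction, 43 lost the call and 0 turned, and the lost calls were of 19 gene and stage pairs.

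With the replicate number as a block, 3 genes were called in 16C against 8C. Deviations of 80 same-numbered library pairs of different stages correlated between -0.146 and 0.396 (median 0.004), with 13 over 0.1. Those of 214 other pairs of different stages correlated between -0.396 and 0.338 (median -0.005), with 21 over 0.1. Both medians were near 0, and the numbers were not taken as pairs. Scaling moved the median of all genes in 2C against MII from 0.075 to 0.204 (TPM), and the morula, ExpB against EarlyB and ExpB against 2C medians as given beside those results. FPKM are relative levels: total RNA per embryo, and any change common to all genes, cannot be read from them.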
